A study of Mus musculus with 9 samples.

Results

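The genes described here are 33 listed mouse genes that serve protein folding and protein disposal in the endoplasmic reticulum (ER), out of 55487 genes counted in each library. They were chosen by name, as sensors of the unfolded protein response, ER chaperones and genes of ER-associated degradation (ERAD). The choice was made with earlier results of these data known. All 33 symbols matched 1 Ensembl identifier each, and all 33 passed the filter on low counts. They comprise 11 chaperones and their cofactors, 6 enzymes of oxidative folding, 11 ERAD genes, 3 sensors and transcription factors, and 2 genes of translocation and export. The first 2 classes together are called the 17 folding genes below.

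The 9 RNA-seq libraries came from J774A.1, a mouse macrophage line. Of these, 3 carried SLC12A9 sgRNA 15, 3 carried SLC12A9 sgRNA 11 and 3 carried the control guide called Safe sgRNA, whose genotype label is WT. The genotype labels describe the SLC12A9 guides as a knockdown, whereas the design text calls the cells knockout, and the question asked is how expression differs between these cells and control cells. All 3 groups shared the same medium history: growth with 10% fetal bovine serum and L-glutamine, then 6 h without serum and glutamine before lysis. A group with serum or glutamine at lysis was not analysed here, so what the medium itself does to these genes cannot be read from the comparisons. Clonality of the edited cells is not stated in the sources used here.

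The ER folds secreted and membrane proteins with the help of chaperones of the HSP70 and HSP90 families, of lectin chaperones that hold glycoproteins, and of protein disulfide isomerases. When unfolded protein accumulates, the sensors IRE1α (gene Ern1), ATF6 and PERK (gene Eif2ak3) induce chaperones, oxidoreductases and ERAD genes, and PERK slows translation while it favours that of ATF4. ERAD takes proteins that cannot be folded back across the ER membrane, through a complex around SEL1L and the ubiquitin ligase HRD1 (gene Syvn1), to the proteasome. Macrophages need this system for their secreted enzymes, cytokines and surface receptors.

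The targeted gene came first as a check on the labels. Slc12a9 averaged 49.97 ± 1.73 CPM (counts scaled to library size by TMM) in the libraries labelled sgRNA 15, 65.3 ± 2.4 CPM in those labelled sgRNA 11 and 48.4 ± 4.5 CPM in safe libraries (SD, n = 3 each), so its mRNA was lower with neither guide, and it was higher with sgRNA 11 (log2 fold change 0.43, SE 0.05, adjusted p = 6.46e-13 in edgeR's quasi-likelihood test). An mRNA level does not show whether a guide disrupted the reading frame, and the groups below are named by their labels. Counts assigned to genes ranged from 16405296 to 25613961 per library. All 10 macrophage markers exceeded 1 CPM in every library, and their summed level was 7844 to 7915 CPM with sgRNA 15, 9519 to 9824 CPM with sgRNA 11 and 6065 to 6221 CPM in safe libraries. The most abundant of them, Lyz2, averaged 3567 CPM with sgRNA 15, 4513 CPM with sgRNA 11 and 1727 CPM with safe sgRNA. Most of the markers were higher, though not all. With sgRNA 15, 6 were called higher and 3 lower (median log2 fold change 0.15), where 32.2% of all tested genes were higher and 30.7% lower. With sgRNA 11, 8 were called higher and 2 lower (median 0.38), where 33.3% of all tested genes were higher and 32.4% lower. Marker lists of T, B and plasma cells (10 genes), fibroblasts (5) and epithelium and endothelium (7) summed to at most 4.27 CPM in any library, and 3 to 6 genes of each list had no count in a whole group. In bulk libraries, fewer cells of a kind and less RNA per cell cannot be told apart, and the part of the macrophage marker levels in the results below was not tested.

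A known way to coordinate ER genes is through short promoter elements read by ATF6 and XBP1, so the promoter letters of the members come before their values. RefSeq promoter windows (GRCm38.p6, 250 bases before to 50 after the start) were at hand for 29 of the 33 genes, all but Hyou1, Manf, Derl1 and Atf6. The ER stress element (ERSE), spelled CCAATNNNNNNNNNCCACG and searched on both strands, was present in 10 of these 29 genes (34.5%). Among all genes with a RefSeq window of the same length it was in 37 of 27025 (0.137%), or in 39 of 32851 windows (0.119%). By class it was found in 8 of the 15 folding genes with a window, in 2 of 10 ERAD genes and in 0 of the 4 others. A second form, ERSE-II, spelled ATTGGNCCACG, was found in Dnajb11 and Herpud1 and in 12 windows of all (0.0365%). A match describes letters only and is not evidence that a factor binds there. Because these elements were already known for ER genes, their shares among the members are a description and not a test.

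The matches are shown because the members that hold them did not all move one way in these cells. No member with an ERSE was called higher with both guides. Each line gives the gene strand from 5′ to 3′ with capitals for the fixed letters of the element, which read CCAAT and CCACG on the gene strand or CGTGG and ATTGG where the element lies on the other strand. The chaperones and oxidoreductases that were lower with both SLC12A9 guides come first.
Hspa5, chr2:34772015-34772053, plus strand: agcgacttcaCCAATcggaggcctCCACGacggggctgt
Hsp90b1, chr10:86705628-86705666, minus strand: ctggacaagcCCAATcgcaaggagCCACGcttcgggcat
Hsp90b1, chr10:86705523-86705561, minus strand: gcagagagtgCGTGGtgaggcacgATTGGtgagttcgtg
Calr, chr8:84847065-84847103, minus strand: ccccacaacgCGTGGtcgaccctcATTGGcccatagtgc
Canx, chr11:50325790-50325828, minus strand: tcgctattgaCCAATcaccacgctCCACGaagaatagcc
Pdia6, chr12:17266481-17266519, plus strand: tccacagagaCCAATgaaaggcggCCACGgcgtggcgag
Creld2, chr15:88819510-88819548, plus strand: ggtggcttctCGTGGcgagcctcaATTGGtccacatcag
Dnajc3, chr14:118937817-118937855, plus strand: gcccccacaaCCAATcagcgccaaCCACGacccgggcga

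Syvn1, Derl3 and Ero1b held the same element and were not called lower with either guide in edgeR, though the means of Syvn1 and Derl3 lay below safe with sgRNA 15, and Syvn1 was called lower there with GC and length offsets (log2 -0.17). The ERSE of Syvn1 lay nearest to the start, at positions -44 to -26, and that of Hsp90b1 farthest, at -212 to -194.
Syvn1, chr19:6046522-6046560, plus strand: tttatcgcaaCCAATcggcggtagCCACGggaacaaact
Derl3, chr10:75893232-75893270, plus strand: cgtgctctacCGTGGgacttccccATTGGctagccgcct
Ero1b, chr13:12565672-12565710, plus strand: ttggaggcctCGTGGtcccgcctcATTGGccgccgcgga

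Herpud1 is shown with the whole 250 bases before its start because it rose most among the ERAD genes and held 2 kinds of element. Its window carried an ERSE-II at -52 to -42 and, on the opposite strand at -112 to -105, the letters TGATGNAA of a C/EBP-ATF response element (CARE), the kind of site that ATF4 binds. CARE letters occurred in 1304 of all windows (3.97%), and Herpud1 was the 1 member of the 29 that held them. Capitals mark both elements, the CARE as its reverse complement.
Herpud1, chr8:94386179-94386428, plus strand: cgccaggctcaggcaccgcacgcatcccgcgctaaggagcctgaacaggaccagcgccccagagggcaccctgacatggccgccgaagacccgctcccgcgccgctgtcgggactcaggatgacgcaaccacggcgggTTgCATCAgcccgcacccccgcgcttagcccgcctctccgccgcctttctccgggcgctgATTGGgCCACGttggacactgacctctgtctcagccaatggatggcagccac

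**Figure D1:**
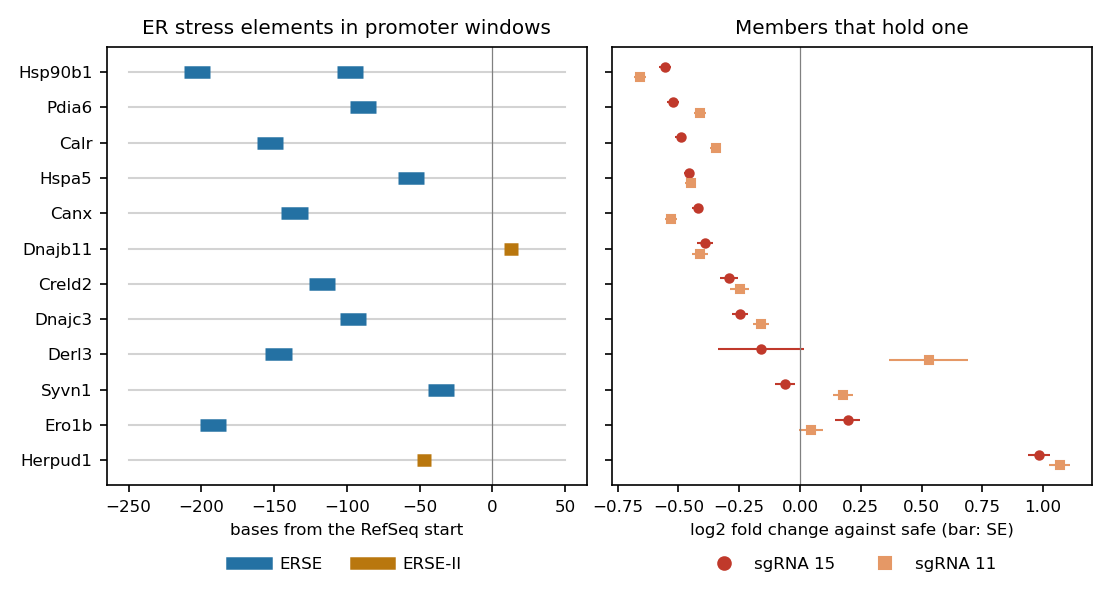
Left, position of ERSE (blue) and ERSE-II (brown) matches in the promoter windows of the 12 members that hold one, in bases from the RefSeq start (0), with the window as a grey line. Right, log2 fold change with its SE of the same genes for sgRNA 15 (circles) and sgRNA 11 (squares) against safe sgRNA: 8 of the 12 lie below 0 with both guides, and Herpud1 lies near 1.

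With either SLC12A9 guide, most of the 17 listed folding genes were lower than in safe cells and most of the 11 listed ERAD genes were higher, a division that the wider lists of ER genes given further down did not have. Of the 17 folding genes, 3 were higher and 13 lower with sgRNA 15 (median log2 fold change -0.39), and 2 were higher and 13 lower with sgRNA 11 (median -0.33). Of the 11 ERAD genes, 7 were higher and 0 lower with sgRNA 15 (median 0.12), and 8 were higher and 2 lower with sgRNA 11 (median 0.25). For the 0 lower ERAD genes with sgRNA 15, the count was also 0 at an unadjusted p under 0.05 and with DESeq2 and limma-voom, and Syvn1 was called lower with offsets for GC content and gene length. These calls are from edgeR's quasi-likelihood test with Benjamini-Hochberg adjustment over 13453 tested genes. Expression differed widely in these cells: 62.9% of all tested genes were called with sgRNA 15 (32.2% higher, 30.7% lower) and 65.8% with sgRNA 11 (33.3% higher, 32.4% lower), and the median of all tested genes was 0.01 in both comparisons. Among the 33 members, 12 were higher and 15 lower with sgRNA 15, and 12 were higher and 17 lower with sgRNA 11. The 2 comparisons share the safe libraries, so they are not independent of each other, and all fold changes below are given for each on its own.

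Summed over the class, the 17 folding genes gave 6476, 6403 and 6512 CPM in the 3 sgRNA 15 libraries, 6726, 6635 and 6689 CPM in the sgRNA 11 libraries, and 8836, 8772 and 8701 CPM in the safe libraries. No library of either SLC12A9 guide reached the lowest safe library. The 11 ERAD genes summed to 1397, 1433 and 1406 CPM with sgRNA 15, 1341, 1323 and 1322 CPM with sgRNA 11, and 1118, 1133 and 1123 CPM with safe sgRNA, with every SLC12A9 library above every safe one. Without Herpud1 the ERAD sum was still 1327 ± 20 CPM with sgRNA 15 and 1239 ± 10 CPM with sgRNA 11, against 1082 ± 7 CPM with safe sgRNA (SD, n = 3 each). The folding genes were therefore counted 4.58 ± 0.10 times as often as the ERAD genes with sgRNA 15 and 5.03 ± 0.03 times with sgRNA 11, against 7.80 ± 0.09 times with safe sgRNA (SD, n = 3 each). Per kilobase of exon, which makes genes of unequal length comparable, that ratio was 5.79 ± 0.11 with sgRNA 15 and 6.32 ± 0.02 with sgRNA 11, against 9.84 ± 0.08 with safe sgRNA.

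**Figure D2:**
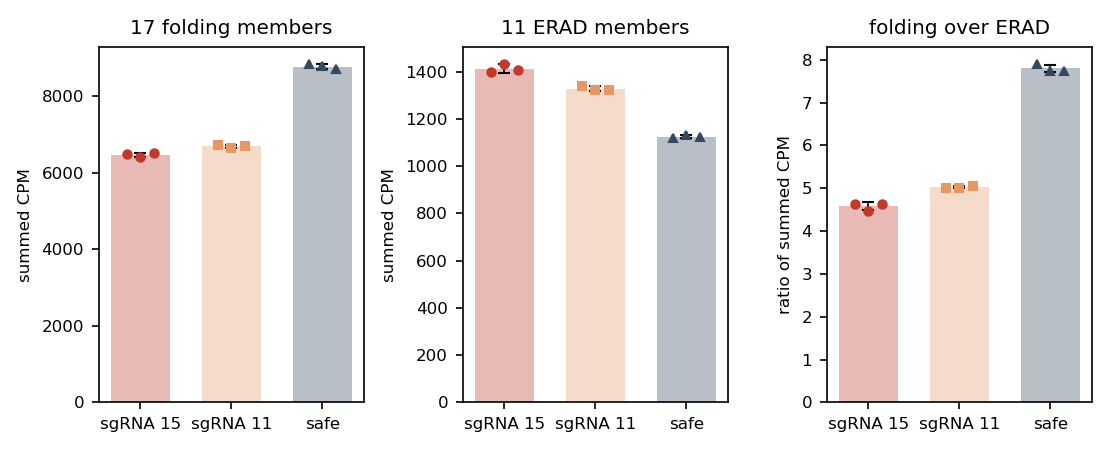
Summed CPM of the 17 folding genes (left) and the 11 ERAD genes (middle), and their ratio (right), for sgRNA 15, sgRNA 11 and safe libraries. Points are libraries, bars the group mean and lines the SD of 3 libraries; the ratio lies near 4.58 and 5.03 with the SLC12A9 guides and near 7.80 with safe sgRNA.

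The distance between the medians of both classes was -0.51 on the log2 scale with sgRNA 15 and -0.58 with sgRNA 11. Taken library by library against the mean of the safe libraries, it was -0.59, -0.46 and -0.47 in the sgRNA 15 libraries and -0.50, -0.62 and -0.55 in the sgRNA 11 libraries. In all 6 libraries the median change from safe was thus lower for folding genes than for ERAD genes, and the libraries of both guides overlapped. Which guide had the larger distance depended on the measure. With a minimum mean of 5 CPM, a filter that drops Derl3, the distance was -0.62 with sgRNA 15 and -0.54 with sgRNA 11. The ratio of summed CPM given above also lay farther from safe with sgRNA 15.

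**Figure D3:**
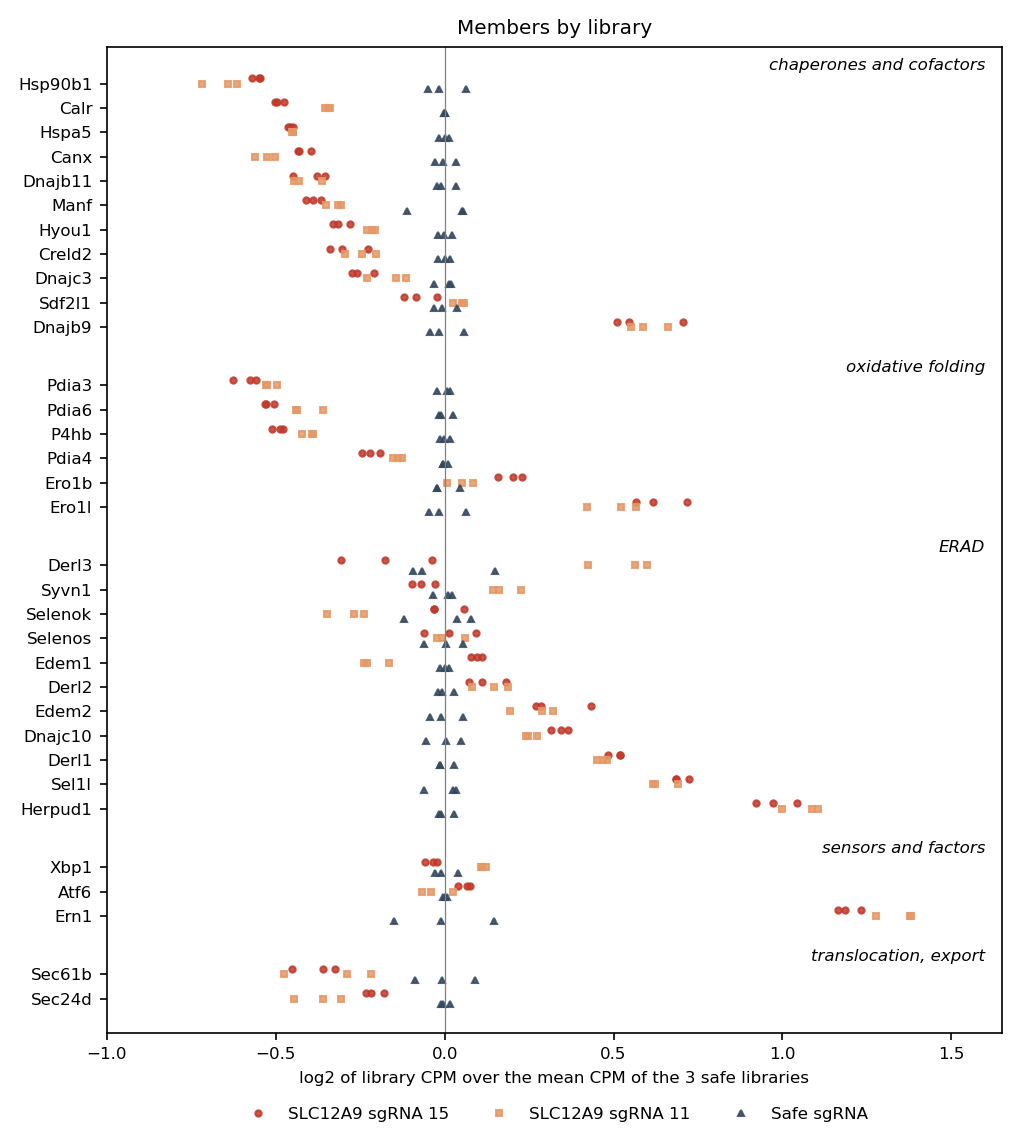
Log2 of each library's CPM over the mean CPM of the 3 safe libraries, for the 33 members by class, with circles for sgRNA 15, squares for sgRNA 11 and triangles for safe libraries. Within the chaperones Dnajb9 alone, and within oxidative folding Ero1l, stand to the right of the safe mean by over 0.4 in all libraries of the SLC12A9 guides, while Herpud1 and Ern1 stand farthest right in their classes.

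Among the chaperones, the abundant ones of the ER lumen and membrane were lower. Hspa5 encodes BiP, the ER member of the HSP70 family, which also binds the sensors and keeps them inactive. It had 1123, 1119 and 1131 CPM with sgRNA 15, 1130, 1129 and 1131 CPM with sgRNA 11, and 1559, 1546 and 1526 CPM with safe sgRNA. The 6 libraries of the SLC12A9 guides lay within a narrow band, far below all safe libraries, and the log2 fold change was -0.46 (SE 0.02, adjusted p = 2.61e-33) with sgRNA 15 and -0.45 (SE 0.02, adjusted p = 5.37e-33) with sgRNA 11. Hsp90b1 encodes GRP94, the HSP90 of the ER. It stood at 429, 422 and 428 CPM with sgRNA 15, 409, 401 and 381 CPM with sgRNA 11, and 654, 619 and 605 CPM with safe sgRNA, so that sgRNA 15 gave 0.68 times and sgRNA 11 gave 0.63 times the safe level. The groups did not overlap, and 10.3% of its exon length lies over the opposite-strand gene 1810014B01Rik, so its reads cannot be assigned with certainty where counting ignores strand.

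The lectin chaperones calnexin and calreticulin hold glycoproteins during folding, the first in the membrane and the second in the lumen. Canx had 579, 580 and 595 CPM with sgRNA 15, 553, 530 and 543 CPM with sgRNA 11, and 801, 767 and 780 CPM with safe sgRNA. Calr, at chr8:84841850-84846934 (mm10), had 1203, 1196 and 1219 CPM with sgRNA 15, 1340, 1334 and 1326 CPM with sgRNA 11, and 1692, 1698 and 1697 CPM with safe sgRNA. Both were lower with each guide without overlap, but the guides ranked them in opposite order. Canx stood at 0.75 times the safe level with sgRNA 15 and at 0.69 times with sgRNA 11, and Calr at 0.71 times with sgRNA 15 and 0.79 times with sgRNA 11. Per kilobase, Calr was the most abundant member in each group, at 419 CPM per kb with sgRNA 15, 463 with sgRNA 11 and 589 with safe sgRNA, ahead of Hspa5 at 266 CPM per kb with sgRNA 15, 267 with sgRNA 11 and 365 with safe sgRNA. P4hb and Pdia3 followed in each group.

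The cofactors follow. Dnajb11 (ERdj3), a J-domain partner of BiP, stood at -0.39 on the log2 scale with sgRNA 15 and at -0.41 with sgRNA 11. Manf, a secreted ER-resident factor, was at -0.39 with sgRNA 15 and -0.33 with sgRNA 11. Hyou1, the large HSP70-like chaperone GRP170 that exchanges BiP's nucleotide, was at -0.31 with sgRNA 15 and -0.22 with sgRNA 11. Creld2 was at -0.29 with sgRNA 15 and -0.25 with sgRNA 11, and Dnajc3 (P58IPK), another J-domain cochaperone, was at -0.25 with sgRNA 15 and -0.16 with sgRNA 11. All 5 passed the test with each guide. Sdf2l1, a partner of ERdj3, averaged 93.3 ± 3.2 CPM with sgRNA 15, 101.5 ± 1.2 CPM with sgRNA 11 and 98.4 ± 2.4 CPM with safe sgRNA (SD, n = 3 each) and did not pass in either comparison (adjusted p = 0.0568 for sgRNA 15 and 0.259 for sgRNA 11 in edgeR). The Sdf2l1 call depended on the setting. It passed as lower with sgRNA 15 under relative log expression size factors (log2 -0.09), GC and length offsets (-0.10) or the replicate number as a block (-0.08). It also passed as lower there without sgRNA 15 replicate 3 (-0.12), without safe replicate 2 (-0.11) or without any 1 of the sgRNA 11 libraries (-0.09 to -0.08). With sgRNA 11 it passed as higher under scaling by library size only (0.08).

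Dnajb9 was the exception among the 11 chaperones and cofactors. It encodes ERdj4, a J-domain protein that brings BiP to IRE1α and takes part in degradation. Its levels were 30.5, 26.6 and 27.3 CPM with sgRNA 15, 29.5, 27.4 and 28.1 CPM with sgRNA 11, and 18.1, 19.5 and 18.5 CPM with safe sgRNA. All SLC12A9 libraries were above all safe libraries, with a fold change of 1.51 for sgRNA 15 (log2 0.59, SE 0.07, adjusted p = 3.36e-12) and 1.52 for sgRNA 11 (log2 0.61, SE 0.07, adjusted p = 9.43e-13).

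In oxidative folding, the disulfide isomerases were lower and the oxidases that recharge them were not. Pdia3 (ERp57), which works on glycoproteins held by calnexin and calreticulin, had 679, 656 and 688 CPM with sgRNA 15, 718, 703 and 702 CPM with sgRNA 11, and 1018, 1024 and 998 CPM with safe sgRNA. P4hb, the archetypal disulfide isomerase PDI, had 666, 651 and 661 CPM with sgRNA 15, 708, 692 and 708 CPM with sgRNA 11, and 920, 938 and 926 CPM with safe sgRNA. Pdia6 (P5), which also attenuates IRE1α, had 468, 461 and 460 CPM with sgRNA 15, 490, 491 and 518 CPM with sgRNA 11, and 677, 660 and 658 CPM with safe sgRNA. In all 3 genes the groups were apart in the order sgRNA 15, sgRNA 11, safe. Fold changes with sgRNA 15 were 0.67 for Pdia3, 0.71 for P4hb and 0.70 for Pdia6, and with sgRNA 11 they were 0.70 for Pdia3, 0.76 for P4hb and 0.75 for Pdia6. Pdia4 (ERp72) followed with less, at 0.86 for sgRNA 15 and 0.91 for sgRNA 11.

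Ero1l, which encodes the oxidase ERO1α that returns PDI to its oxidised state, ran the other way. It had 108, 104 and 115 CPM with sgRNA 15, 104, 94.1 and 101 CPM with sgRNA 11, and 69.4, 68.0 and 73.4 CPM with safe sgRNA. No library with an SLC12A9 guide overlapped with the safe libraries, and the fold change was 1.55 with sgRNA 15 (log2 0.63, SE 0.04, adjusted p = 3.69e-25) and 1.42 with sgRNA 11 (log2 0.51, SE 0.04, adjusted p = 6.92e-20). Its paralog Ero1b (ERO1β) had 50.4, 49.5 and 48.0 CPM with sgRNA 15, 45.6, 44.6 and 43.2 CPM with sgRNA 11, and 44.4, 42.4 and 42.4 CPM with safe sgRNA. It was higher with sgRNA 15 (log2 0.20, SE 0.05, adjusted p = 0.000378), while its sgRNA 11 libraries overlapped with the safe ones (log2 0.05, SE 0.05, adjusted p = 0.435).

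Among the listed ERAD genes, the membrane scaffolds of the HRD1 complex were higher. Herpud1, at chr8:94386438-94395377 (mm10), encodes an ER membrane protein with a ubiquitin-like domain that organises that complex. It had 88.2, 84.0 and 81.1 CPM with sgRNA 15, 91.0, 85.5 and 92.2 CPM with sgRNA 11, and 42.3, 42.5 and 43.7 CPM with safe sgRNA. The libraries of the SLC12A9 guides were about double the safe ones, with a fold change of 1.98 for sgRNA 15 (log2 0.98, SE 0.04, adjusted p = 9.45e-35) and 2.10 for sgRNA 11 (log2 1.07, SE 0.04, adjusted p = 1.24e-37). Sel1l, the adaptor that holds HRD1 and delivers substrates, had 235, 242 and 235 CPM with sgRNA 15, 236, 224 and 225 CPM with sgRNA 11, and 140, 149 and 150 CPM with safe sgRNA. Derl1, a derlin of the channel through which substrates leave, had 241, 247 and 247 CPM with sgRNA 15, 235, 239 and 241 CPM with sgRNA 11, and 171, 171 and 175 CPM with safe sgRNA. For both genes the groups of either guide lay wholly above safe, at 1.62-fold with sgRNA 15 and 1.57-fold with sgRNA 11 for Sel1l, and at 1.42-fold with sgRNA 15 and 1.38-fold with sgRNA 11 for Derl1.

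Lesser increases were found along the path of a substrate. Dnajc10 (ERdj5), a reductase that opens disulfide bonds before export, had 167, 173 and 170 CPM with sgRNA 15, 159, 162 and 159 CPM with sgRNA 11, and 139, 135 and 129 CPM with safe sgRNA. That was 1.27-fold with sgRNA 15 and 1.19-fold with sgRNA 11, without overlap with safe. Edem2, which starts the mannose trimming that marks glycoproteins for disposal, was at 1.26-fold with sgRNA 15 and 1.21-fold with sgRNA 11. Derl2 was at 1.09-fold with sgRNA 15 (adjusted p = 0.00771) and 1.10-fold with sgRNA 11 (adjusted p = 0.00214) in edgeR. The Derl2 call with sgRNA 15 was lost without sgRNA 15 replicate 1 (log2 0.09) and with offsets for GC content and gene length (log2 0.08). Selenos, a selenoprotein that ties the p97 ATPase to the membrane, averaged 48.0 ± 2.6 CPM with sgRNA 15, 47.9 ± 1.4 CPM with sgRNA 11 and 47.5 ± 1.9 CPM with safe sgRNA (SD, n = 3 each), and it passed in neither comparison.

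The other 4 ERAD genes differed between the guides. Edem1, a mannosidase-like lectin that speeds disposal of misfolded glycoproteins, had 344, 352 and 349 CPM with sgRNA 15, 291, 278 and 276 CPM with sgRNA 11, and 327, 329 and 324 CPM with safe sgRNA. Its sgRNA 15 libraries lay above and its sgRNA 11 libraries below the safe libraries, with a log2 fold change of 0.09 (SE 0.03, adjusted p = 0.000762) for sgRNA 15 and -0.21 (SE 0.03, adjusted p = 1.16e-11) for sgRNA 11. With GC and length offsets the rise with sgRNA 15 was no longer called (log2 0.02). Selenok, a selenoprotein of the p97 and derlin complex, had 35.2, 35.2 and 37.4 CPM with sgRNA 15, 29.8, 30.5 and 28.2 CPM with sgRNA 11, and 37.9, 36.9 and 33.1 CPM with safe sgRNA. Selenok was lower with sgRNA 11 alone among the 2 comparisons with safe (log2 -0.29, SE 0.06, adjusted p = 8.87e-06), and its sgRNA 15 and safe libraries overlapped.

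Syvn1 encodes HRD1, the ligase at the centre of the complex. It had 64.1, 67.2 and 65.3 CPM with sgRNA 15, 75.6, 80.1 and 76.6 CPM with sgRNA 11, and 66.9, 69.0 and 69.6 CPM with safe sgRNA, so that the sgRNA 11 libraries stood apart (log2 0.18, SE 0.04, adjusted p = 0.000113) and the sgRNA 15 libraries overlapped with safe (log2 -0.06, SE 0.04, adjusted p = 0.204). The call with sgRNA 11 was lost with GC and length offsets (log2 0.02). Derl3, the derlin that is least expressed here, had 2.66, 3.20 and 2.90 CPM with sgRNA 15, 4.40, 4.97 and 4.85 CPM with sgRNA 11, and 3.07, 3.64 and 3.13 CPM with safe sgRNA. It was 1.44-fold higher with sgRNA 11 (log2 0.53, SE 0.16, adjusted p = 0.00296), and its sgRNA 15 libraries overlapped with safe (log2 -0.16, SE 0.18, adjusted p = 0.443).

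Of the sensors, Ern1 changed most among all 33 members. It encodes IRE1α, the kinase and endoribonuclease that splices Xbp1 mRNA, and spans chr11:106394650-106487852 (mm10). Its levels were 43.7, 45.9 and 44.4 CPM with sgRNA 15, 50.7, 47.3 and 50.8 CPM with sgRNA 11, and 17.6, 21.6 and 19.4 CPM with safe sgRNA. The SLC12A9 libraries were all more than double the safe mean, at 2.30-fold for sgRNA 15 (log2 1.20, SE 0.06, adjusted p = 1.90e-31) and 2.56-fold for sgRNA 11 (log2 1.36, SE 0.06, adjusted p = 1.66e-35).

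The transcription factors Xbp1 and Atf6 differed from safe cells by at most 0.11 on the log2 scale. Xbp1 had 196, 198 and 193 CPM with sgRNA 15, 218, 216 and 217 CPM with sgRNA 11, and 196, 206 and 199 CPM with safe sgRNA. It was 1.08-fold higher with sgRNA 11 (adjusted p = 0.000168) and not called with sgRNA 15 (adjusted p = 0.255) in edgeR, and the sign with sgRNA 11 turned with GC and length offsets (log2 -0.0017), which also called it lower with sgRNA 15 (log2 -0.12). Counts per gene do not separate its spliced from its unspliced form. Atf6, whose product is cleaved in the Golgi to free a transcription factor, had 297, 290 and 295 CPM with sgRNA 15, 286, 274 and 269 CPM with sgRNA 11, and 281, 283 and 282 CPM with safe sgRNA. Its call with sgRNA 15 (log2 0.06, SE 0.03, adjusted p = 0.0386) was lost with DESeq2 (log2 0.05) and without any 1 of the 3 sgRNA 15 libraries (log2 0.04 to 0.06), among other settings.

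Both genes of traffic through the ER membrane were lower. Sec61b, a subunit of the channel through which new proteins enter, had 40.3, 42.9 and 44.1 CPM with sgRNA 15, 39.6, 45.1 and 47.3 CPM with sgRNA 11, and 51.9, 54.8 and 58.7 CPM with safe sgRNA. Sec24d, a cargo adaptor of the COPII coat that carries proteins out, had 55.1, 57.2 and 55.7 CPM with sgRNA 15, 50.5, 47.6 and 52.4 CPM with sgRNA 11, and 64.6, 64.3 and 65.6 CPM with safe sgRNA. Neither gene overlapped with safe, and the fold changes were 0.77 with sgRNA 15 and 0.80 with sgRNA 11 for Sec61b and 0.86 with sgRNA 15 and 0.78 with sgRNA 11 for Sec24d.

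Compared directly, sgRNA 15 and sgRNA 11 differed in 21 of the 33 members, 9 higher and 12 lower with sgRNA 15, where 33.5% of all tested genes were called (18% higher, 15.5% lower). These differences ran from -0.69 to 0.31 on the log2 scale and exceeded 0.25 in size in 3 members. In Derl3, Edem1, Syvn1, Xbp1, Sdf2l1 and Atf6 the guides were farther from each other than either was from safe sgRNA. Edem1 (log2 0.31, SE 0.03, adjusted p = 5.95e-18) and Selenok (0.28, SE 0.06, adjusted p = 5.33e-05) were higher with sgRNA 15, as were Sec24d (0.16, SE 0.05, adjusted p = 0.00462) and Ero1b (0.15, SE 0.05, adjusted p = 0.0121). Derl3 (-0.69, SE 0.17, adjusted p = 0.00047), Syvn1 (-0.24, SE 0.04, adjusted p = 1.70e-06), Ern1 (-0.15, SE 0.05, adjusted p = 0.0181) and Xbp1 (-0.15, SE 0.03, adjusted p = 4.43e-06) were lower with sgRNA 15. By class, 4 folding genes were higher and 8 lower with sgRNA 15, with a median of -0.07, and 3 ERAD genes were higher and 2 lower, with a median of 0.04. With GC and length offsets 3 members in place of 9 were higher, which were Edem1, Selenok and Sec24d. Without sgRNA 11 replicate 3 the higher members numbered 5, and Hsp90b1, Ero1b, Dnajc10 and Atf6 lost their call. The Ern1 difference lost its call with DESeq2 (log2 -0.15) and without sgRNA 15 replicate 1, sgRNA 11 replicate 1 or sgRNA 11 replicate 3 (-0.15 to -0.14), Ero1b also without sgRNA 15 replicate 1 or 2 (0.13 and 0.14), and Sec24d without sgRNA 11 replicate 2 (0.12).

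Hspa5 differed little between the guides (fold 0.995 for sgRNA 15 against sgRNA 11, adjusted p = 0.847 in edgeR), and Dnajb9, Dnajb11, Herpud1, Sel1l, Derl1 and Edem2 were among the 12 members whose difference did not pass. A difference that did not pass is not shown to be absent. The SE of these log2 differences was 0.02 to 0.07. Calr and the disulfide isomerases Pdia3, Pdia4, Pdia6 and P4hb were lower with sgRNA 15 than with sgRNA 11 by 0.07 to 0.14 on the log2 scale, and Canx and Hsp90b1 were higher by 0.11 and 0.10. The call was lost for Pdia3 without sgRNA 15 replicate 2 (log2 -0.06), for Pdia4 without sgRNA 15 replicate 3 (-0.07), and for Canx and Hsp90b1 with GC and length offsets (0.03 and 0.02).

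**Figure D4:**
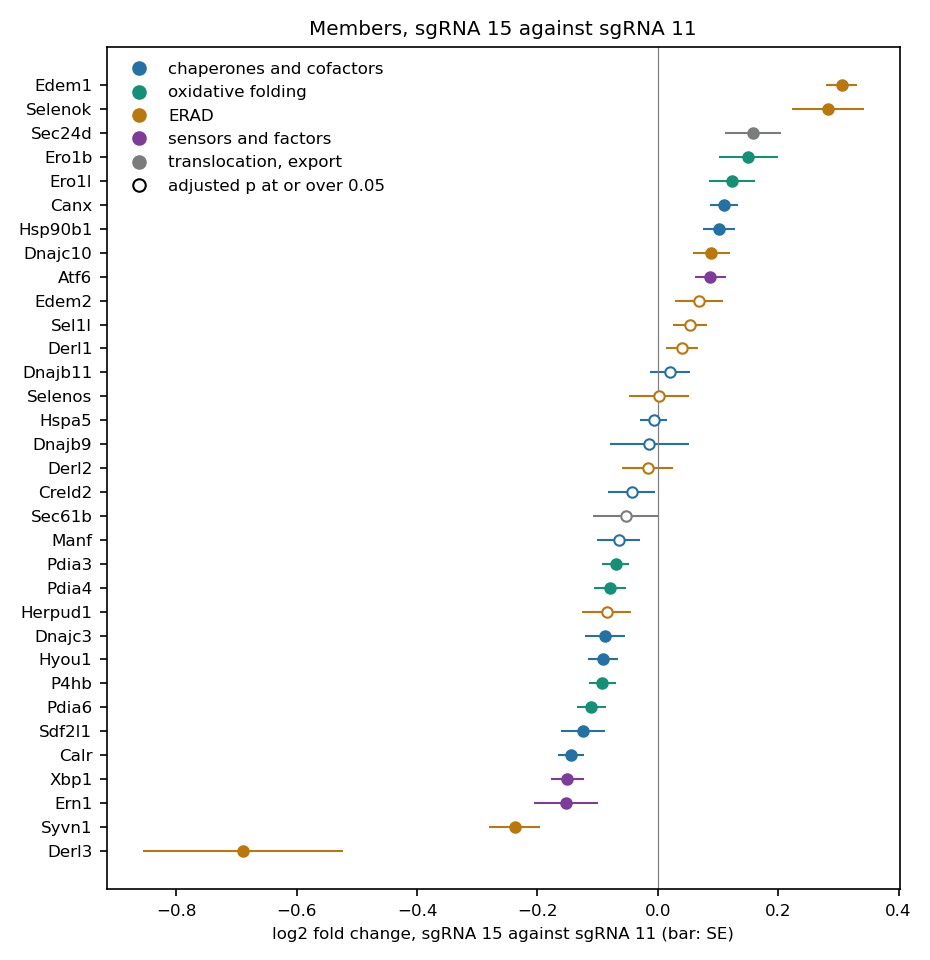
Log2 fold change of sgRNA 15 against sgRNA 11 with its SE for the 33 members, coloured by class and ordered from high to low; filled points passed an adjusted p of 0.05 in edgeR. Edem1 and Selenok stand at the upper end (0.31 and 0.28) and Derl3 at the lower end (-0.69).

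The members' division between folding and degradation was not found in wider lists of ER genes, where the median of the folding genes lay above that of the ERAD genes with both guides. Of 36 further tested folding genes, 20 were higher and 9 lower with sgRNA 15 (median 0.17), and 20 were higher and 10 lower with sgRNA 11 (median 0.20), so that higher genes outnumbered lower ones, unlike in the 17 listed ones. Fkbp11, a prolyl isomerase of the ER, was the farthest down, at 2.00 ± 0.19 CPM with sgRNA 15 and 2.14 ± 0.30 CPM with sgRNA 11, against 5.78 ± 0.39 CPM with safe sgRNA (SD, n = 3 each), and Dnajc25 stood at -0.49 on the log2 scale with sgRNA 15 and at -0.51 with sgRNA 11. Uggt2, a relative of the enzyme that checks glycoprotein folding, was higher at 0.96 (SE 0.27) with sgRNA 15 and 1.02 (SE 0.26) with sgRNA 11. Its level was low, at 2.27 ± 0.35 CPM with sgRNA 15, 2.29 ± 0.96 CPM with sgRNA 11 and 1.13 ± 0.32 CPM with safe sgRNA (SD, n = 3 each). Mcfd2, part of a cargo receptor for glycoproteins, was higher at 0.38 with sgRNA 15 and 0.60 with sgRNA 11. Of 41 further ERAD genes, 20 were higher and 11 lower with sgRNA 15 (median 0.10), and 22 were higher and 13 lower with sgRNA 11 (median 0.14). Among all tested genes, 32.2% were higher and 30.7% lower with sgRNA 15, and 33.3% were higher and 32.4% lower with sgRNA 11. Os9, a lectin that passes glycoproteins to SEL1L, had 142 ± 5 CPM with sgRNA 15 and 148 ± 6 CPM with sgRNA 11, against 94.4 ± 2.0 CPM with safe sgRNA, and Tmub1 was higher by 0.63 with sgRNA 15 and 0.86 with sgRNA 11 (log2). The ubiquitin-conjugating enzymes Ube2j2 (-0.59 with sgRNA 15, -0.66 with sgRNA 11) and Ube2g2 (-0.61 with sgRNA 15, -0.63 with sgRNA 11; uncertain for exon overlap) were lower. Vcp, the gene of p97, was lower too, at 317 ± 4 CPM with sgRNA 15 and 303 ± 5 CPM with sgRNA 11, against 467 ± 5 CPM with safe sgRNA. Nploc4 stood at -0.47 on the log2 scale with sgRNA 15 and at -0.49 with sgRNA 11.

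The third branch of the unfolded protein response had the largest medians among the wider lists. Of 10 tested genes of the PERK and ATF4 branch, 9 were higher and 1 lower with sgRNA 15 (median 1.27), and 8 were higher and 1 lower with sgRNA 11 (median 1.09). The share of all tested genes called higher was 32.2% with sgRNA 15 and 33.3% with sgRNA 11. Trib3, a pseudokinase that restrains this branch, had 256 ± 10 CPM with sgRNA 15 and 266 ± 5 CPM with sgRNA 11, against 34.0 ± 1.3 CPM with safe sgRNA. Chac1, which degrades glutathione, had 64.6 ± 2.4 CPM with sgRNA 15 and 60.8 ± 0.8 CPM with sgRNA 11, against 10.6 ± 0.3 CPM with safe sgRNA (SD, n = 3 each). Ddit3, which encodes CHOP, averaged 22.3 CPM with sgRNA 15, 16.3 CPM with sgRNA 11 and 5.65 CPM with safe sgRNA. Atf3 was the gene of this list that fell, to 119 ± 3 CPM with sgRNA 15 and 45.5 ± 3.6 CPM with sgRNA 11, against 166 ± 3 CPM with safe sgRNA. Eif2ak3, the gene of PERK itself, stood at 0.33 on the log2 scale with sgRNA 15 and at 0.34 with sgRNA 11. ATF4 is also made in response to amino acid shortage through the kinase GCN2, and these counts do not say which kinase was active.

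Sensors and the proteins that process them were mostly higher: of 15 further genes tested, 11 were higher and 2 lower with sgRNA 15, and 9 were higher and 4 lower with sgRNA 11. For this list and those below, the shares to compare with are those of all tested genes. These were 32.2% higher and 30.7% lower with sgRNA 15, and 33.3% higher and 32.4% lower with sgRNA 11. Creb3l2, a membrane-held factor related to ATF6, had 17.04 ± 0.4 CPM with sgRNA 15 and 16.6 ± 1.6 CPM with sgRNA 11, against 9.08 ± 0.34 CPM with safe sgRNA (SD, n = 3 each). Creb3l3 was near 2 CPM with either guide and 1.05 CPM with safe sgRNA, while Traf2, which links IRE1α to kinase signalling, stood at -0.25 on the log2 scale with sgRNA 15 and at -0.14 with sgRNA 11, and Atf6b at -0.06 with sgRNA 15 and -0.08 with sgRNA 11. Genes of the translocon, signal peptidase and oligosaccharyltransferase leaned the other way. Their called share was 70.6% with sgRNA 15 and 67.6% with sgRNA 11, near the 62.9% and 65.8% of all tested genes. Of 34 tested, 5 were higher and 19 lower with sgRNA 15, and 6 were higher and 17 lower with sgRNA 11, among them Ssr1 (-0.47 with sgRNA 15, -0.52 with sgRNA 11) and Ssr2 (-0.37 with sgRNA 15, -0.30 with sgRNA 11; uncertain for exon overlap), subunits of the translocon-associated complex. Krtcap2 (0.86 with sgRNA 15, 0.85 with sgRNA 11; uncertain for exon overlap) and Tusc3 (0.48 with sgRNA 15, 0.47 with sgRNA 11), subunits of the oligosaccharyltransferase, were higher. Of 18 COPII export genes, 4 were higher and 12 lower with sgRNA 15, and 5 were higher and 11 lower with sgRNA 11. Sec24b was at -0.39 with sgRNA 15 and -0.30 with sgRNA 11, and Sec24a at -0.18 with sgRNA 15 and -0.44 with sgRNA 11, whereas Kdelr1, which retrieves ER proteins from the Golgi, was at 0.17 with sgRNA 15 and 0.24 with sgRNA 11, and Sec16a at 0.10 with sgRNA 15 and 0.25 with sgRNA 11.

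**Figure D5:**
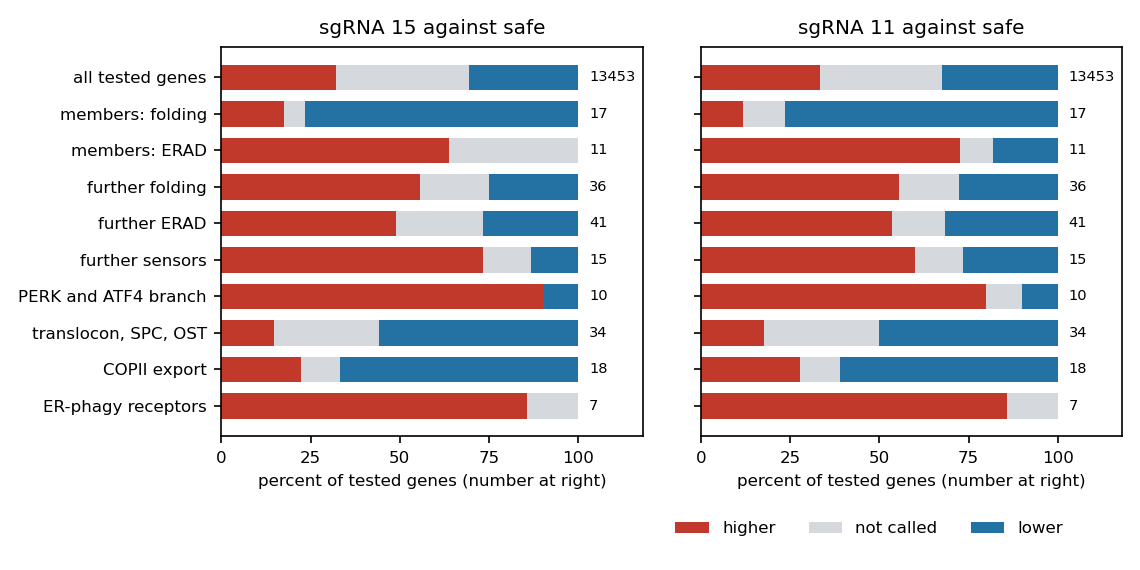
Percent of tested genes called higher (red), not called (grey) or lower (blue) with sgRNA 15 (left) and sgRNA 11 (right) against safe sgRNA, for all 13453 tested genes, the members and the wider lists, with the number tested at the right of each bar. SPC is the signal peptidase complex and OST the oligosaccharyltransferase; 13 of the 17 folding members are lower in each panel, while 20 of 36 further folding genes are higher in each panel.

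Genes that hold these promoter elements were found on both sides of 0. Of the 10 members with an ERSE, 7 were lower and 1 higher (Ero1b) with sgRNA 15, and 7 were lower and 2 higher (Syvn1 and Derl3) with sgRNA 11. Of the pair with an ERSE-II, Dnajb11 was lower and Herpud1 higher with each guide. Outside the members, 6 tested genes had an ERSE window, of which 3 were higher and 1 lower with sgRNA 15 and 4 were higher and 1 lower with sgRNA 11. CARE letters were in the windows of 272 tested genes, of which 138 were higher and 66 lower with sgRNA 15 (median 0.22) and 137 were higher and 64 lower with sgRNA 11 (median 0.20). Of all 9361 tested genes with a window, 3310 were higher and 3097 lower with sgRNA 15 (median 0.02). With sgRNA 11, 3361 of these 9361 genes were higher and 3290 lower (median 0.01). The element UPRE, spelled TGACGTGG and known as a site for XBP1, was in 222 windows (0.676%) and in 1 member, Sec24d, at positions -26 to -19.
Sec24d, chr3:123267460-123267487, plus strand: cccgggcgccTGACGTGGcactagcaac
Of 92 tested genes with a UPRE, 24 were higher and 36 lower with sgRNA 15, and 27 were higher and 44 lower with sgRNA 11. The set to compare with is again all 9361 tested genes with a window, counted above.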

How the data were processed

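Polyadenylated RNA of 9 J774A.1 libraries was sequenced, 3 per guide, and samples were grouped by the guide in their titles. Each deposited table holds raw read counts for the genes of 1 library. The authors aligned with STAR and counted with HTSeq on mm10, per the submitters' processing notes, and neither versions nor annotation, strandedness or overlap mode were found in the labels or tables. HTSeq's tallies of unassigned reads (assigned reads were 79.3 to 80.7% of each table) stayed out of library sizes and tests, and reads ambiguous between genes were 6.32 to 6.56%.

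Counts were fitted with edgeR 4.0.16 in R 4.3.3: filterByExpr (minimum count 10), TMM, a robust quasi-likelihood fit of all 9 libraries (6 residual degrees of freedom), 2-sided tests and Benjamini-Hochberg adjustment over 13453 genes within each comparison, with a threshold of 0.05. The biological coefficient of variation was 2.82%. CPM and log2 fold changes are on the TMM scale. Identifiers, positions, exon lengths and exon overlaps (10% or more called uncertain) came from GENCODE M21 (mm10), in which Ero1b is listed under an older symbol, and promoter windows from RefSeq, matched by symbol. A position in a window counts the first transcribed base as 1 and the base before it as -1. The transcribed end of 26 of 29 windows matched a GENCODE transcript of the gene. The fit was tested on simulated data.

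The members, lists and tests were chosen with earlier results of these data known, and nothing here is independent support for a pattern seen then. Library values were given for the members with the largest called changes, up to 4 chaperones, 4 folding enzymes, 5 ERAD genes, 3 sensors and factors and 2 traffic genes, and for the 4 higher and 4 lower members with the largest called difference between guides. From each wider list up to 2 higher and 2 lower genes called with both guides were named by mean size of change. Hspa5, Ddit3, Eif2ak3, Vcp and Nploc4, and the genes of the closing section, were chosen after their values were seen. Whether replicates are separate cultures is not labelled, and p-values reflect sample-to-sample spread that may be technical. No replicate pair agreed within sampling noise (chi-square per degree of freedom 1.76 to 6.83).

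Alternatives were DESeq2 1.42.0 and limma-voom (limma 3.58.1), relative log expression size factors, scaling by library size only, testing all genes with any count, testing genes that average at least 5 CPM, offsets for GC content and length, only the groups compared, the replicate number as a block, and each library left out in turn.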

Additional observations from a re-analysis of the deposited data

Results flagged for a closer look

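The direct test of sgRNA 15 against sgRNA 11 called 9 members higher and 12 lower, where 33.5% of all tested genes were called. Among the members called there, 7 had a call against safe sgRNA that was not the same for both guides. The share of all tested genes with such unequal calls was not counted, so the 7 are a description only. Edem1 was higher with sgRNA 15 and lower with sgRNA 11, each against safe sgRNA, and the guides differed by a log2 fold change of 0.305. Selenok was called with sgRNA 11, where it was lower, and not with sgRNA 15, and the guides differed by 0.283. Ero1b was called with sgRNA 15, where it was higher, and the difference was 0.150. Atf6 was likewise called with sgRNA 15, with a difference of 0.0871. Syvn1, Derl3 and Xbp1 were called higher with sgRNA 11 and not called with sgRNA 15, and the differences were -0.238 for Syvn1, -0.689 for Derl3 and -0.151 for Xbp1. All 7 differences passed an adjusted p of 0.05 in edgeR. With GC and length offsets the Ero1b and Atf6 differences lost their call (log2 0.078 and 0.025). Against safe sgRNA, those offsets also removed the sgRNA 11 calls of Syvn1 and Xbp1 (0.015 and -0.0017). The sgRNA 15 calls of Edem1 and Atf6 were removed as well (0.016 and -0.022). No cause of these differences was tested.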

How the results depend on the processing

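Counts of members called against safe sgRNA stayed between 9 and 12 higher and between 15 and 18 lower for sgRNA 15, and between 10 and 13 higher and at 17 lower for sgRNA 11, over all alternatives. In the direct comparison of the guides, the higher members fell to 3 with GC and length offsets, and to between 5 and 9 when 1 library was left out, with the low end without sgRNA 11 replicate 3. The distance between folding and ERAD medians was -0.62 for sgRNA 15 with a minimum mean of 5 CPM, a filter that drops Derl3. Between the guides it was -0.0659 with GC and length offsets and -0.128 to -0.0607 when 1 library was left out, with the smallest distance without sgRNA 15 replicate 2. Signs turned for Sdf2l1, Selenos, Selenok, Atf6 and Xbp1, in comparisons where their fold change was at most 0.11 on the log2 scale. With GC and length offsets these were -0.0679 for Sdf2l1, -0.00316 for Selenos and -0.00166 for Xbp1 with sgRNA 11, and -0.0100 for Selenos and -0.0221 for Atf6 with sgRNA 15. With library size only they were 0.00618 for Atf6 with sgRNA 11, and 0.0289 for Selenok and 0.00168 for Xbp1 with sgRNA 15. With a minimum mean of 5 CPM, Selenok was at 0.00164 with sgRNA 15. Leaving out 1 library gave -0.0288 to 0.0248 for Selenos with sgRNA 11, -0.0372 to 0.0462 for Selenos with sgRNA 15 and -0.0777 to 0.0281 for Selenok with sgRNA 15. Their causes were not tested. Scaling by library size only moved the median of all genes to 0.05 in both comparisons with safe sgRNA. Libraries with the same replicate number deviated together weakly at most, with correlations of -0.00774 to 0.0576. Those with different numbers had correlations of -0.0721 to 0.0412. The numbers are not taken as pairs, though a weak shared deviation is not excluded. With the replicate number as a block, 12 members were higher and 16 lower with sgRNA 15, and 12 were higher and 17 lower with sgRNA 11. The member gained with sgRNA 15 under this block was Sdf2l1 (log2 -0.0770, adjusted p = 0.0451 in edgeR). Derl3, at 2.92 to 4.74 CPM, had the widest error of the members.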

Other observations

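Most of the listed receptors that hand pieces of the ER to autophagy were higher with both guides. Of 7 tested in edgeR, 6 were higher with sgRNA 15 and 6 with sgRNA 11, and Rtn3 was not called in either comparison (adjusted p = 0.986 for sgRNA 15 and 0.499 for sgRNA 11). Among all tested genes, 32.2% were called higher with sgRNA 15 and 33.3% with sgRNA 11. Calcoco1, a soluble receptor, had 60.3 ± 1.9 CPM with sgRNA 15 and 64.6 ± 2.6 CPM with sgRNA 11, against 24.6 ± 1.0 CPM with safe sgRNA (SD, n = 3 each). Retreg1 (FAM134B), a reticulon-like receptor of ER sheets, had 325 ± 2 CPM with sgRNA 15 and 324 ± 10 CPM with sgRNA 11, against 214 ± 5 CPM with safe sgRNA. Between sgRNA 15 and sgRNA 11 the log2 differences of the 7 genes ran from -0.10 to 0.03, with adjusted p from 0.0967 for Calcoco1 upward.

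Of the tested genes outside the members, 6 had an ERSE in their promoter window, of which 3 were higher and 1 lower with sgRNA 15 and 4 were higher and 1 lower with sgRNA 11. Another 7 had an ERSE-II, of which 3 were higher and 1 lower with sgRNA 15 and 3 were higher and 2 lower with sgRNA 11. Of all 9361 tested genes with a window, 3310 were higher and 3097 lower with sgRNA 15, and 3361 were higher and 3290 lower with sgRNA 11. Nucb1, which encodes a calcium-binding protein of the Golgi, averaged 256 CPM with sgRNA 15 and 279 CPM with sgRNA 11, against 192 CPM with safe sgRNA. Its log2 fold change was 0.41 (SE 0.03) with sgRNA 15 and 0.54 (SE 0.03) with sgRNA 11. Alg12, a mannosyltransferase that builds the glycan given to new ER proteins, was at 0.51 (SE 0.09) with sgRNA 15 and 0.60 (SE 0.08) with sgRNA 11. On the lower side, Rcl1 stood at -0.55 (SE 0.05) with sgRNA 15 and -0.66 (SE 0.05) with sgRNA 11, and Hnrnpa3 at -0.36 (SE 0.02) with sgRNA 15 and -0.65 (SE 0.03) with sgRNA 11.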
